A study of Mus musculus with 11 samples.

Results

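Dividing macrophages (macs) were taken here as cells with at least 1 UMI (unique molecular identifier, counted once per captured transcript) of Mki67, at least 1 UMI of Top2a and no UMI of the B cell gene Cd79a. By this rule 977 of 51712 cell barcodes were called dividing, which is 1.89% of the 11 libraries and 5 tissues. They were compared with the 45536 cells of the same libraries that had no UMI of Mki67, Top2a or Cd79a. The call rests on RNA, and neither DNA content nor mitosis was measured. The rule chose the cells by Mki67 and Top2a, so the levels of these genes, and of the cell cycle genes that move with them, are given as a description and not as a finding.

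Single-cell RNA-seq on the 10x Genomics 3′ platform was carried out on macs sorted from brain (microglia), colon (CMs), liver (Kupffer cells, KCs), lung (alveolar macs, AMs) and spleen (SMs). The mice were C57Bl/6, of both sexes and 6 to 8 weeks old unless stated otherwise in the methods. In each tissue a library was made from CRE-negative mice whose Zeb2 alleles were flanked by loxP (WT, Zeb2fl/fl) and 1 library from littermates of the same Zeb2fl/fl genotype that carried CRE (Zeb2KO), and liver had another CRE-negative library with loxP-flanked Nr1h3 alleles (Nr1h3fl/fl). With 1 library per tissue and genotype no difference within a tissue has a replicate check. The labels name Fcgr1-cre for every Zeb2KO library, whereas the methods name Clec4f-cre for KCs and Itgax-cre for AMs, and which applies could not be settled. KCs were sorted as Clec4F+ cells, AMs as CD11c+ SiglecF+ cells and microglia as CD45int cells, and CMs and SMs as CD64+ F4/80+ cells without Ly6C, Ly6G and SiglecF. A Zeb2KO library may hold cells with both, 1 or no deleted allele. The 3′ counts of Zeb2 do not check the deletion, since the recombined allele keeps the 3′ end of the transcript.

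Tissue-resident macs can maintain their numbers by dividing in place, a process that depends on growth factors such as CSF-1 and, in the lung, GM-CSF. A cell that enters the cycle first copies its DNA in S phase, with genes driven by E2F factors, and then prepares for and carries out mitosis in G2/M, with genes controlled largely through the MuvB and B-MYB complexes. Differentiated macs of many tissues are known to renew themselves by local division.

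The 4 marker genes of the division program were Mki67 (a coat protein of mitotic chromosomes, chr7:135689784-135716361, minus strand), Top2a (the topoisomerase that untangles replicated DNA, chr11:98992943-99024189, minus strand), Birc5 (survivin, part of the complex that corrects chromosome attachment, chr11:117849251-117855743, plus strand) and Cdk1 (the kinase that drives entry into mitosis, chr10:69335146-69352938, minus strand). GENCODE M21 (GRCm38/mm10) gave the coordinates. Because all members move together with these genes, their promoters are shown, from 250 bases before to 50 bases after the start in RefSeq (GRCm38.p6). Capitals mark, on either strand, the CCAAT box (CCAAT), the cell cycle genes homology region or CHR (TTTGAA) and E2F sites (TTTCCCGC or TTTGGCGC). The windows are chr7:135716330-135716629 for Mki67, chr11:99024140-99024439 for Top2a, chr11:117848987-117849286 for Birc5 and chr10:69352863-69353162 for Cdk1.
Mki67: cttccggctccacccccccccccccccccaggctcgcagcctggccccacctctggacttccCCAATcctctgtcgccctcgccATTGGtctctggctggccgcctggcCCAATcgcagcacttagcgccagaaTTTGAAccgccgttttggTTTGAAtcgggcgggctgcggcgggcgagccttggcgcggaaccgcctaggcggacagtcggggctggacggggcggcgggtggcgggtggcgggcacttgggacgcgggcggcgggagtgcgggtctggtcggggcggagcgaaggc
Top2a: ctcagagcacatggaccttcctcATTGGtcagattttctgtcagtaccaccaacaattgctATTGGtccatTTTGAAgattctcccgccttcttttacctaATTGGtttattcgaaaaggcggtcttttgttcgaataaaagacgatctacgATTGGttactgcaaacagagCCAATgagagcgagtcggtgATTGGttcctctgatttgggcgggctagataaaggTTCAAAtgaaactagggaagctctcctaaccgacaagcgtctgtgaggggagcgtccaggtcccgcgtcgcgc
Birc5: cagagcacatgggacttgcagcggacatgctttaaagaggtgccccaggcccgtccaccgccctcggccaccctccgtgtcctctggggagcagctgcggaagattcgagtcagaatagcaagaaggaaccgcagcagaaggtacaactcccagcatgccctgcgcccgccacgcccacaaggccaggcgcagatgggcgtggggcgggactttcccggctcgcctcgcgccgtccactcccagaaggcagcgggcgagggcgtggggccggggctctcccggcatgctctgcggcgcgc
Cdk1: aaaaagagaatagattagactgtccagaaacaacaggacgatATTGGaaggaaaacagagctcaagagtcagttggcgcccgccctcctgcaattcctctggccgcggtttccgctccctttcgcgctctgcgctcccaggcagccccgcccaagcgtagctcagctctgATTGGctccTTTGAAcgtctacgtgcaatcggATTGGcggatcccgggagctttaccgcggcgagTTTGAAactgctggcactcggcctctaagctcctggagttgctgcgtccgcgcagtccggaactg
Mki67 held 3 CCAAT boxes and 2 CHRs in this window, Top2a 6 and 2, and Cdk1 3 and 2, whereas Birc5 held 0 of these motifs. Among the 30 genes of a G2/M list, 25 matched a RefSeq promoter, and 17 of these (68%) held a CHR and 19 (76%) a CCAAT box, against 20.2% and 41.1% of all 27025 genes with a promoter of this length. Both motifs together were found for 15 of the 25 genes (60%) and for 7.97% of all genes. An E2F site was found for 6 of 21 matched S phase genes (28.6%) and for 1.80% of all genes, with a CHR in 3 of the 21. A match in the window is a description of its letters and no measure of binding.

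Birc5 and Cdk1 were not used by the rule and serve as a check of the label. In dividing cells with more than 1 UMI of either rule gene, 75% to 98.6% had a UMI of Birc5 or Cdk1, depending on the library. In cells with neither rule gene this share was 0.896% to 12.7%. The 122 cells that were just inside the rule, with exactly 1 UMI of each gene, had a UMI of Birc5 or Cdk1 in 25% to 60% of cases. Just outside it, 1486 cells had Mki67 alone, of which 4.55% to 35.1% had Birc5 or Cdk1, and 1271 cells had Top2a alone, of which 0% to 43.0% did. Cells just outside the rule thus held other division genes in part, and the shares below are those of the rule and not of all cycling cells. The median dividing cell held 2 to 4 Mki67 UMIs and 3.5 to 7 Top2a UMIs.

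Library totals ranged from 11133411 to 47400786 UMIs and the median barcode from 2108.5 to 8754 UMIs. Dividing cells held more UMIs than the others, with a median UMI count 1.35 times (AM Zeb2KO) to 2.54 times (SM WT) that of non-dividing cells. The rule needs UMIs of 2 genes and so favours deeply sampled cells, and shares are therefore also given after each cell was thinned to 2000 UMIs. All of the dividing microglia, CMs and KCs held UMIs of at least 3 of 10 general mac markers, as did 34 of 36 and 15 of 16 SMs. In AMs, which lack several of these genes, the share was 63.6% in WT and 74.4% in Zeb2KO dividing cells, against 55.0% and 72.2% of non-dividing AMs. At least 2 markers of another lineage were found in some dividing cells. In CMs these were fibroblast genes in 23.4% of WT and 17.2% of Zeb2KO dividing cells (24.9% and 17.1% of non-dividing cells). Plasma cell genes were found in 12.1% and 14.1% (7.41% and 6.61%) and epithelial genes in 7.80% and 7.03% (2.51% and 1.35%). In AMs, epithelial genes were found in 25.9% and 32.1% of dividing cells, against 16.2% and 20.9% of non-dividing cells. Doublets were not called, and their part in these shares was not tested.

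The dividing cells of WT spleen stood apart from all other libraries by their red cell transcripts. Haemoglobin made up 7.81% of their UMIs against 1.01% in non-dividing cells of that library. In 15 of the 36 cells (41.7%) haemoglobin exceeded 10% of the UMIs, and the highest cell held 46.6%, against 2.52% of non-dividing cells above this limit. Alas2, which starts haem synthesis in erythroid cells, was found in 21 of the 36 (58.3% against 3.28%). The erythroid transcription factor genes Klf1 and Gata1 were found in 12 (33.3% against 0.522%) and 9 (25% against 0.246%). The plot of red cell transcripts shows that the 16 dividing cells of Zeb2KO spleen lacked this signature. At least 2 of 7 erythroid genes were found in 30 of the 36 WT and 11 of the 16 Zeb2KO dividing cells, against 42.8% and 55.5% of non-dividing cells, and the list summed to 79020 CPM (UMIs of a gene per 1000000 UMIs of the cells summed) in WT dividing cells and to 781 CPM in Zeb2KO dividing cells. None of the 16 had more than 10% haemoglobin UMIs or a UMI of Klf1, Gata1 or Alas2, which for 16 cells allows a share of up to 18.8%. Whether the 36 cells hold erythroid precursors, macs with taken-up red cells or droplets of both was not tested. Several spleen values, but not all, are also given without the haemoglobin-rich cells. Outside the spleen, 1 of the 143 dividing AMs of WT lung exceeded 10%, with 28.2%.

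**Figure D1:**
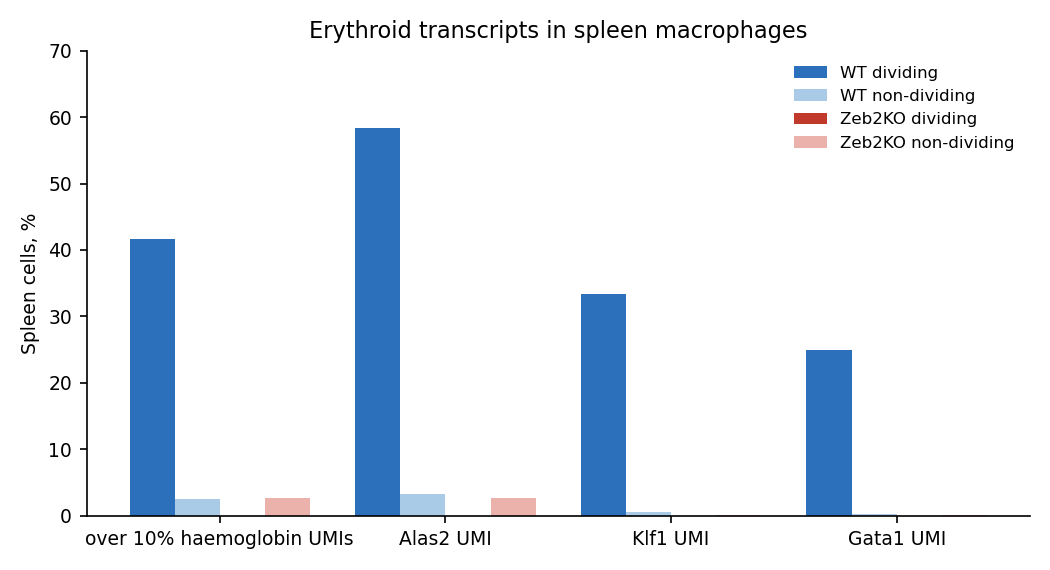
Percent of spleen cells (vertical axis, from 0) with more than 10% haemoglobin UMIs or with a UMI of Alas2, Klf1 or Gata1, as bars for dividing and non-dividing cells of the WT and the Zeb2KO library. The 36 WT dividing cells stand above all other bars for every measure (41.7%, 58.3%, 33.3% and 25%), and the 16 Zeb2KO dividing cells are at 0.

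Dividing cells were found in every tissue but were very unevenly spread, from none in WT microglia to more than 4% in Zeb2KO KCs. According to the methods, KCs and AMs were sequenced on a NextSeq and microglia, SMs and CMs on a HiSeq. The Cell Ranger version differed in the same way. Differences between these groups of tissues cannot be told apart from this step. They numbered 370 in the 5 Zeb2fl/fl WT libraries, 536 in the 5 Zeb2KO libraries and 71 in the Nr1h3fl/fl liver library. Shares are percentages of cells without Cd79a, with exact (Clopper-Pearson) 95% intervals that cover counting error only. In WT brain 0 of 3093 microglia were dividing, which allows a share of up to 0.0970% when the limit of a count of 0 is set at 3 cells (the exact interval reaches 0.119%), whereas 26 Zeb2KO microglia were dividing, or 0.743% (0.486% to 1.09%). In colon the genotypes had nearly the same share, with 141 dividing WT CMs (2.86%, 2.42% to 3.37%) and 128 Zeb2KO CMs (2.97%, 2.48% to 3.52%). In liver 50 WT KCs (1.12%, 0.833% to 1.5%) and 198 Zeb2KO KCs (4.38%, 3.8% to 5.02%) were dividing, and the intervals did not overlap. The 71 dividing Nr1h3fl/fl KCs made up 1.86% (1.46% to 2.34%) and lay between these libraries, nearly apart from the WT interval although neither library carried CRE. In lung there were 143 dividing WT AMs (1.86%, 1.57% to 2.19%) and 168 dividing Zeb2KO AMs (2.56%, 2.19% to 2.97%). In spleen the order was the other way, with 36 WT cells (1.06%, 0.741% to 1.46%) and 16 Zeb2KO cells (0.535%, 0.306% to 0.868%).

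The Zeb2KO share was thus at least 7.66 times the WT share in brain (WT set to its limit of 3 cells), 3.91 times in liver, 1.38 times in lung, 1.04 times in colon and 0.506 times in spleen. Against the Nr1h3fl/fl library the log2 ratio in liver was 1.23, compared with 1.97 against the Zeb2fl/fl library. Over the 5 tissue pairs the mean log2 ratio was 0.89 ± 1.56 (SD, n = 5), higher in 4 of 5 pairs and with brain at its lower bound, and did not pass an exact two-sided sign-flip permutation test (p = 0.3125, the smallest p that 5 pairs allow being 0.063). Without the brain pair the mean was 0.37. After thinning to 2000 or 1000 UMIs the Zeb2KO share was higher in 3 of 5 pairs. This was also so when cells with other lineages' markers were left out, where the log2 ratio in colon was −0.10. Shares are not cell numbers, since the sort fixed how many cells entered each library.

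Thinning to 2000 UMIs changed the order of tissues and left the Zeb2KO share above the WT share in liver and brain, although the lower bound in brain fell to 3.7 times, and to 2.06 times at 1000 UMIs. The dividing share was then 0% of 2816 WT and 0.394% of Zeb2KO microglia, and 0.357% of WT and 1.54% of Zeb2KO KCs. It was 0.772% of WT and 1.04% of Zeb2KO CMs, with 0.244% and 0.464% at 1000 UMIs (12 and 20 cells, with overlapping intervals), and 0.998% and 0.988% of AMs, so that the AM difference disappeared. In spleen it was 0.98% of WT and 0.366% of Zeb2KO cells, after 48.8% and 36.0% of cells with too few UMIs had been left out. Without the haemoglobin-rich cells the log2 ratio in spleen moved from −0.98 to −0.21. The CMs, whose libraries were the most deeply sampled, had a higher share than AMs before thinning and a similar share after it.

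In the 10 libraries with dividing cells, where the rule fixes that division genes are present, the balance between phases differed. In the summed UMIs of dividing cells the 26 S phase genes reached between 1517 CPM (SM Zeb2KO) and 4113 CPM (SM WT). The 30 G2/M genes reached between 3206 CPM (CM WT) and 8514 CPM (microglia Zeb2KO). The UMIs of G2/M genes per UMI of S phase genes were lowest in WT spleen, at 0.959, and highest in Zeb2KO microglia, at 3.5. Without the haemoglobin-rich cells WT spleen had 4446 CPM of S phase and 3662 CPM of G2/M genes and a ratio of 0.824. KCs lay at 1.28 (WT), 1.68 (Zeb2KO) and 1.14 (Nr1h3fl/fl), CMs at 1.46 and 1.72, and AMs at 2.09 and 2.11 in WT and Zeb2KO. In each of the 4 tissues with both genotypes the Zeb2KO value was the higher of the pair, by little in lung. This order was not tested and rests on single libraries, in Zeb2KO spleen on 16 dividing cells. The CRE-negative KC libraries also differed from each other (1.28 and 1.14). All cell cycle and chromatin genes together made up 1.91% to 3.39% of the UMIs of dividing cells and 0.291% to 0.495% of those of non-dividing cells. Mitochondrial genes did not differ detectably, with 4.33% of UMIs in dividing and 4.50% in non-dividing cells (difference −0.168 ± 1.08 percentage points, SD, n = 10 libraries, higher in 7 of 10, exact sign-flip permutation p = 0.619). Ribosomal protein genes had 15.6% against 14.4% (difference 1.22 ± 2.32, higher in 8 of 10, exact p = 0.131, adjusted over these 2 measures 0.262).

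Which genes changed alongside division was tested over 9 libraries, 5 without CRE and 4 Zeb2KO, each with its dividing and its non-dividing cells summed. The fit was edgeR's quasi-likelihood test with the library as a block and Benjamini-Hochberg adjustment. WT microglia had no dividing cell and SM Zeb2KO only 16, and they did not enter the fit. Of 10368 genes tested, 3998 (38.6%) passed an adjusted p of 0.05, of which 1448 (14%) were higher and 2550 (24.6%) lower in dividing cells. At least 2-fold differences were found for 601 of the higher and 145 of the lower genes. The split depended on the scaling. Under TMM normalization, which gave these numbers, the median log2 fold change of all genes was −0.14, and 36.2% of the calls were higher. With library totals only, an alternative chosen after seeing the data, the median was 0.05, a shift of 0.19, with 2263 genes (21.8%) higher and 1108 (10.7%) lower, or 67.1% of the calls higher. All 1448 higher calls and all 1108 lower calls stood under both scalings and none was called in opposite directions. Below, a change is said to hold under both scalings only where this was so. The same background percentages, 14% higher and 24.6% lower, apply to each list that follows, and with library totals 21.8% and 10.7%.

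As the rule fixes, all 26 S phase genes, all 30 G2/M genes and all 15 chromatin and tubulin genes were higher. Their median log2 fold changes were 3.07, 5.80 and 2.48 under TMM. Rrm2, the ribonucleotide reductase subunit that supplies DNA building blocks, lay between 127 and 514 CPM in the dividing and between 0.693 and 8.67 CPM in the non-dividing cells of the 9 libraries, with medians of 272 and 1.97 CPM. Nusap1, which binds spindle microtubules, had medians of 204 and 0.915 CPM, and the linker histone gene Hist1h1b 75.3 and 0.713 CPM. These genes were named for their fold changes and move with the rule genes, so their separation was fixed by the choice. Outside the lists, the genes with the highest fold changes among those with at least 20 CPM and 1 sign in every library included further division genes. Esco2, which links sister chromatids, had 57.0 to 138 CPM in dividing and 0.210 to 0.415 CPM in non-dividing cells. Aspm, a spindle pole protein, had 31.4 to 124 against 0.0578 to 0.788 CPM. Neil3, a DNA glycosylase, had 33.4 to 263 against 0.254 to 0.747 CPM, and the kinase gene Pbk 73.9 to 263 against 0.116 to 1.12 CPM.

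Of the D cyclins and CDK inhibitors, which set the threshold for entering the cycle, 5 of 9 were higher and 2 lower (1 with library totals). The inhibitors of the INK4 family, which bind CDK4 and CDK6, were the most different. A rise of genes that move with the rule genes is fixed by the choice of cells, and whether these inhibitors do so was not tested. Cdkn2c (p18) ranged from 59.3 to 315 CPM (median 116) in dividing cells and from 3.72 to 19.3 CPM (median 8.40) in non-dividing cells. The ranges did not overlap, and the log2 fold change was 3.54 ± 0.22 (SE, n = 9, adjusted p = 3.41e-10). Cdkn2d (p19) rose by 3.02 ± 0.17 (adjusted p = 1.2e-10), with 50.1 to 210 CPM against 4.47 to 14 CPM. Cdkn2a (p16 and p19ARF) rose by 2.67 ± 0.46 (adjusted p = 0.000180), was higher in 8 of 9 libraries and was at 0 in the dividing cells of WT spleen. Cdkn1a (p21), a target of p53, rose by 1.0 ± 0.35 (adjusted p = 0.0313) and was higher in 9 of 9 libraries. Its level in Zeb2KO microglia, 2571 CPM (Poisson 95% interval 2367 to 2787) in dividing against 142 CPM in non-dividing cells, stood apart. Without that library its log2 fold change was 0.58 and no longer passed (adjusted p = 0.0515), nor did it without WT KCs (0.91, adjusted p = 0.0593) or Nr1h3fl/fl KCs (0.83, adjusted p = 0.0696). The call was also lost with 2 UMIs of each marker (0.58, adjusted p = 0.064) and with tissues as blocks (1.15, adjusted p = 0.126). Ccnd3 was the one D cyclin that was higher, by 0.79 ± 0.19 (adjusted p = 0.00297), in 9 of 9 libraries, with a median of 68.0 against 34.9 CPM and overlapping ranges. Ccnd2 fell by 0.95 on the log2 scale (SE 0.12, adjusted p = 8.22e-06, lower in 8 of 9), from a median of 54.3 to 36.0 CPM, and held under both scalings. Ccnd1 was lower under TMM only (−0.38 ± 0.11, adjusted p = 0.0110), and Cdkn1b (p27) did not pass (0.15 ± 0.13, adjusted p = 0.383) but was higher against depth-matched cells (0.41, adjusted p = 0.0177).

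The transcription factors of the mac lineage moved the other way. Of 12 regulators, 10 were lower and none higher under TMM, with a median log2 fold change of −0.49, and 7 were lower with library totals. Cebpa, needed to form the myeloid lineage, fell by 0.93 (SE 0.09, adjusted p = 1.82e-07) and was lower in 9 of 9, with medians of 66.9 and 103 CPM. Klf4 fell by 0.84 (adjusted p = 0.000117), Klf2 by 0.71 (adjusted p = 0.00142), Maf by 0.51 (adjusted p = 0.00164) and Spi1, which encodes the mac master regulator PU.1, by 0.46 (adjusted p = 0.000642). Zeb2 itself fell by 0.66 (SE 0.11, adjusted p = 0.000161), with a median of 330 against 490 CPM, and was lower in 8 of 9. All of these genes held under both scalings, but with tissues as blocks Klf2 and Zeb2 did not pass (adjusted p = 0.075 and 0.057), whereas Cebpb, Runx1 and Irf8 were lower under TMM only, Irf8 not without WT or Zeb2KO CMs (adjusted p = 0.069 and 0.066). Myc (−0.30 ± 0.15, adjusted p = 0.128) and Zeb1 (adjusted p = 0.392) did not pass, but Myc was called lower when cells with other lineages' markers were left out (−0.52, adjusted p = 0.026). The sizes were modest beside those of division genes, and the libraries overlapped widely in level, so the differences are visible within a library and not between libraries.

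Receptors for growth factors were mostly lower as well, with 7 of 9 lower and 1 higher (6 and 1 with library totals). Csf1r, the receptor of CSF-1 and IL-34, ranged from 33.1 CPM (AM Zeb2KO) to 1730 CPM (microglia Zeb2KO) in dividing cells, with a median of 782 CPM, and from 37.0 to 1949 CPM with a median of 1260 CPM in non-dividing cells. It fell by 0.58 (SE 0.10, adjusted p = 0.000196) in 8 of 9 libraries. The receptor chains for GM-CSF fell too, Csf2ra by 0.44 (adjusted p = 0.000198), Csf2rb by 0.47 (adjusted p = 0.000451) and Csf2rb2 by 0.65 (adjusted p = 0.000573). Csf3r, the G-CSF receptor, fell by 0.96 (adjusted p = 5.81e-06) and Tgfbr2, a receptor of TGF-beta, by 0.64 (adjusted p = 7.25e-05), all under both scalings. With tissues as blocks Csf2ra did not pass (adjusted p = 0.077). Tgfbr1 was lower under TMM only. The 1 higher receptor was Flt3, which lies outside the rule for named genes because its mean level was under 10 CPM and was picked out after its values were seen (log2 fold change 2.13).

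**Figure D2:**
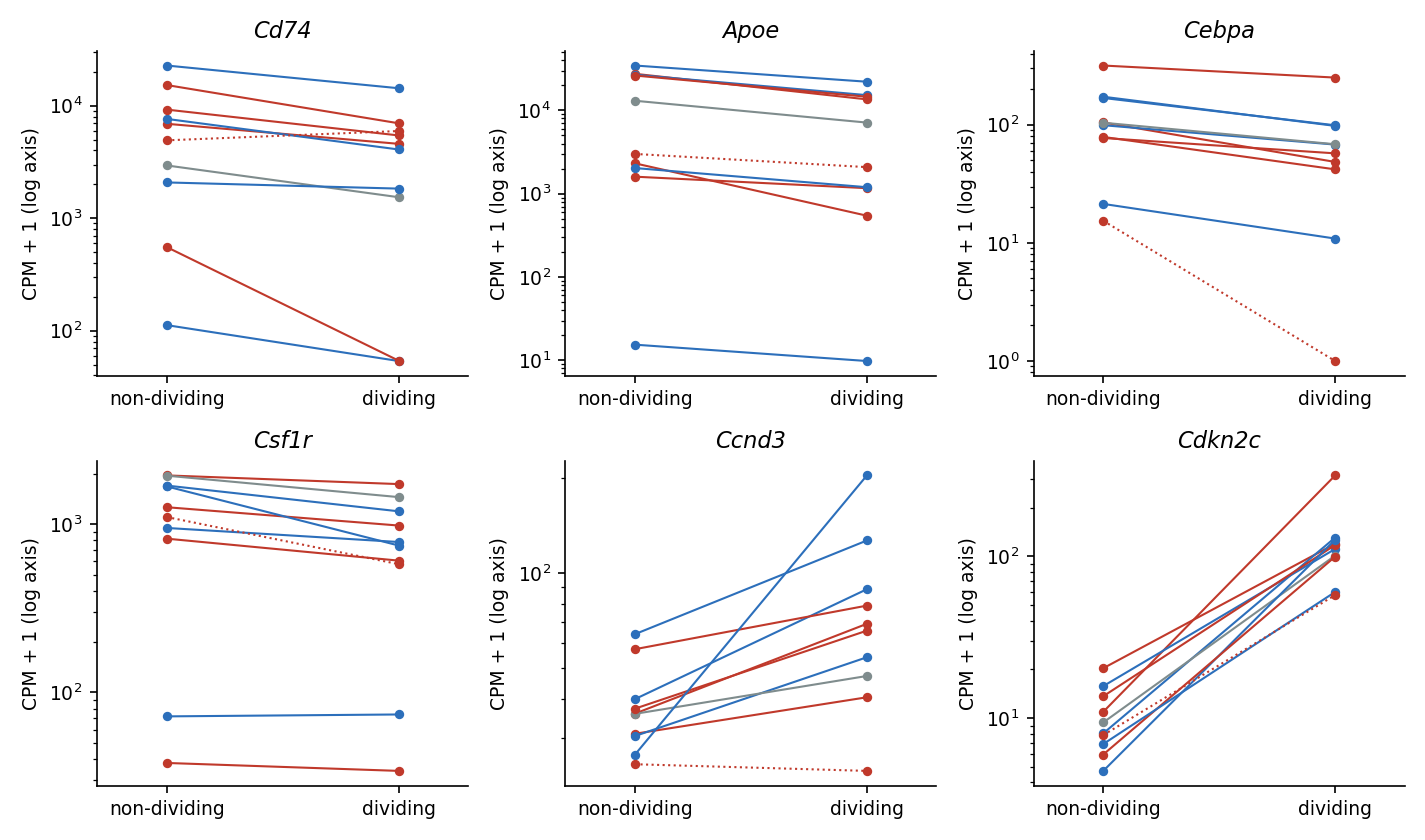
Level of Cd74, Apoe, Cebpa, Csf1r, Ccnd3 and Cdkn2c in non-dividing (left) and dividing (right) cells of each library, on a log axis of CPM plus 1, with a line joining the values of a library (dotted for SM Zeb2KO, which did not enter the fit). Cd74, Apoe and Cebpa fall in all 9 libraries of the fit (Cd74 in WT SMs only with the haemoglobin-rich cells), and Cdkn2c and Ccnd3 rise in all 9.

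General mac genes were lower in dividing cells as a group. Of 25 core mac genes, 22 were lower and none higher (17 and none with library totals), with a median log2 fold change of −0.66. Apoe, the lipid carrier, had medians of 7139 CPM in dividing and 13058 CPM in non-dividing cells, from 8.80 to 22103 and from 14.4 to 34586 CPM over the libraries. It fell by 1.10 (SE 0.15, adjusted p = 1.33e-05) in 9 of 9. Cd14, the lipopolysaccharide coreceptor, fell by 0.98 (SE 0.09, adjusted p = 9.82e-08), with medians of 112 and 199 CPM, also in 9 of 9. Mertk, a receptor for dead cells, fell by 0.83 (adjusted p = 1.16e-06) and C1qa, a complement component, by 0.90 (adjusted p = 0.0119), in 9 of 9 libraries each. C1qa did not pass under DESeq2 (adjusted p = 0.17) or with tissues as blocks (adjusted p = 0.088). In WT AMs C1qa was at the floor (0 CPM in dividing and 0.0736 CPM in non-dividing cells), so its sign there carries no information. The markers Cd68, under TMM only (−0.34 ± 0.09, adjusted p = 0.00447), and Aif1, under both scalings (−0.47 ± 0.12, adjusted p = 0.00402), were the least lower of the 10 general markers, all of which were called lower under TMM and 7 with library totals. Cx3cr1, the fractalkine receptor (0.03 ± 0.23, adjusted p = 0.927, with a sign that changed between settings), and the scavenger receptor gene Cd36 (−0.24 ± 0.18, adjusted p = 0.299) did not pass.

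All 7 of 7 MHC class II genes, which present antigen to T cells, were lower under both scalings, with a median log2 fold change of −0.97 under TMM. Cd74, the invariant chain that guides MHC class II, had medians of 4081 CPM in dividing and 6906 CPM in non-dividing cells and was lower in 9 of 9 libraries. It fell by 1.2 (SE 0.23, adjusted p = 0.000467), most in Zeb2KO AMs (log2 ratio −3.35) and least in WT SMs (−0.18). H2-Ab1 fell by 1.03 (adjusted p = 0.00264), H2-DMa by 0.74 (adjusted p = 6.51e-06) and H2-DMb1 by 0.56 (adjusted p = 6.08e-05). With tissues in place of libraries as blocks Cd74 and H2-Ab1 did not pass (adjusted p = 0.055 and 0.14). The 16 dividing cells of Zeb2KO spleen, outside the fit, went against this pattern, with 14513 CPM for the class II list against 9939 CPM in non-dividing cells of the library. In the other 9 libraries the summed class II level was lower in dividing cells, for example 160 against 993 CPM in Zeb2KO AMs and 32074 against 48906 CPM in WT CMs. Without the haemoglobin-rich cells this was no longer so in WT SMs, with 4411 CPM in dividing and 4055 CPM in non-dividing cells for the list and 2248 and 2110 CPM for Cd74, compared with 3555 and 3994 CPM and 1832 and 2079 CPM with them. The study describes a minor group of Zeb2KO AMs with raised class II genes and splits CMs by their Cd74 level. The part of such groups in the class II differences was not tested.

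Immediate early genes, which respond to stimulation and also to tissue dissociation, were lower for 10 of 12 under TMM and 5 of 12 with library totals. Junb fell by 1.2 (SE 0.15, adjusted p = 4.51e-06) in 8 of 9 libraries and Zfp36, which destabilizes inflammatory mRNAs, by 0.89 (adjusted p = 6.10e-06) in 9 of 9, both under both scalings. Their summed level was nonetheless higher in the dividing cells of Zeb2KO microglia (20019 against 17252 CPM) and of WT KCs (1512 against 1375 CPM).

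Of 8 monocyte genes tested, 2 were higher and none lower. Vim, an intermediate filament gene, had a median of 387 CPM in dividing and 104 CPM in non-dividing cells and was higher in 9 of 9 libraries (0.67 ± 0.20, adjusted p = 0.0136). S100a4, a calcium-binding protein gene, passed (0.60 ± 0.21, adjusted p = 0.0322), but was higher in only 5 of 9 libraries and lost the call under DESeq2 (adjusted p = 0.578) and without either CM library, WT KCs or Zeb2KO KCs (adjusted p = 0.0684 to 0.190). The remaining 6, S100a6 and Napsa among them, did not pass. Of 8 glycolysis genes Pgk1 (0.47 ± 0.13, adjusted p = 0.0101) and Tpi1 (0.27 ± 0.09, adjusted p = 0.0243) were higher in 9 of 9 libraries, and Aldoa fell by 0.78 (SE 0.09, adjusted p = 1.16e-06) in 9 of 9. With library totals 4 of the 8 were called higher and 1 lower, against 2 and 1 under TMM. Vim, S100a4, Pgk1 and Tpi1 did not pass against non-dividing cells matched for depth (adjusted p = 0.0667, 0.171, 0.0967 and 0.117), nor with tissues as blocks (adjusted p = 0.080, 0.052, 0.106 and 0.219). Pgk1 also lost its call without Zeb2KO CMs (adjusted p = 0.0623), and Tpi1 without either CM library or any 1 of the 3 KC libraries (adjusted p = 0.0592 to 0.0760). Without the filter on low counts S100a4, Pgk1 and Tpi1 did not pass (adjusted p = 0.106, 0.080 and 0.414). S100a4 also lost its call when 3 of 4 division markers were required (adjusted p = 0.0517), and Tpi1 with the filter at 3 median absolute deviations (adjusted p = 0.0513).

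The next genes lie outside the lists and had the lowest fold changes among genes with at least 20 CPM and 1 sign in every library, so that being lower in 9 of 9 was fixed by the choice. They held under both scalings. Tcp11l2, of little known function, had medians of 6.33 CPM in dividing and 26.5 CPM in non-dividing cells and fell by 2.20 (SE 0.17, adjusted p = 5.91e-09). Slfn5, an interferon-induced gene, fell by 1.56 (adjusted p = 2.69e-06) and Cxcl13, which encodes a chemokine that attracts B cells, by 1.49 (adjusted p = 0.000668), although under DESeq2 Cxcl13 did not pass (adjusted p = 0.070). Hist1h2bc, a histone H2B gene with polyadenylated transcripts, fell by 1.42 (SE 0.15, adjusted p = 9.47e-07), with medians of 74.2 and 193 CPM, whereas the replication-dependent histone gene Hist1h2ap had medians of 819 and 10.1 CPM. The remaining 6 were Rusc1, Pbxip1, Apoc1, Osgin1, Dusp5 and Dlgap4, with log2 fold changes between −1.36 and −1.22.

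**Figure D3:**
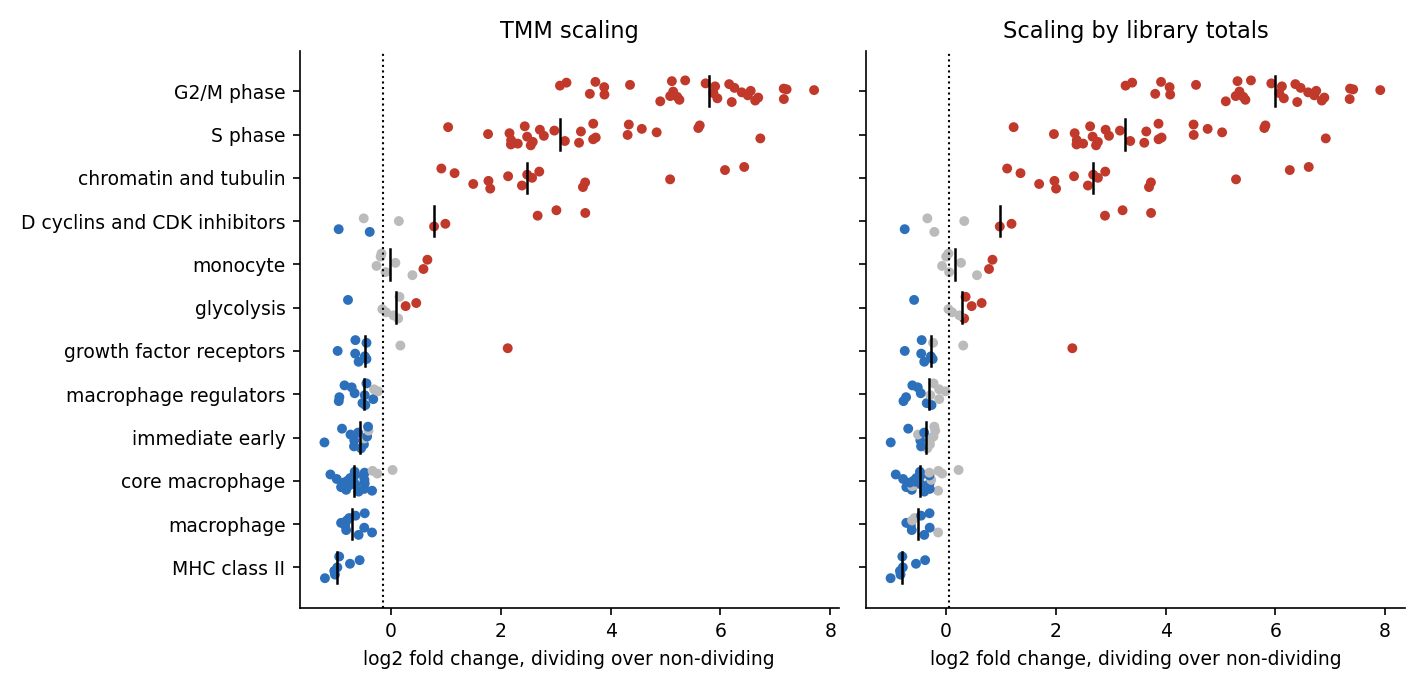
Log2 fold change, dividing over non-dividing cells, of every tested member of each gene list, under TMM (left) and with library totals only (right). Red points were called higher, blue points lower and grey points neither, the bar is the median of a list, and the dotted line is the median of all genes (−0.14 and 0.05). The cycle lists lie far to the positive side, and the MHC class II list is blue throughout in both panels.

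Few genes of other cell types were high enough to be tested in these 9 libraries. The fibroblast gene Dcn was lower (−2.52 ± 0.37, adjusted p = 5.34e-05), with most of its UMIs in CMs, 282 CPM at most in non-dividing cells, and did not pass under DESeq2 (−1.19, adjusted p = 0.41). The 4 haemoglobin genes tested did not pass and were higher in 2 of 9 libraries, WT spleen and WT lung. The 1 T and NK cell gene tested, the cytokine receptor gene Il7r (named after its values were seen), was lower under both scalings (−1.35, and −1.11 with library totals), in 7 of 9 libraries. Of 4 endothelial genes 1 was lower, of 2 B cell genes 1 (under TMM only), of 4 dendritic cell genes 1 was higher (Flt3), and the 1 hepatocyte gene tested, Ttr, did not pass. Plasma cell, neutrophil, epithelial and mast cell genes were too low to be tested.

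Which tissue-specific genes dividing cells keep was asked with identity genes. Such a gene had 50 CPM or more in the non-dividing cells of a tissue's Zeb2fl/fl WT library, was found in 20% or more of these cells, and had a level at least 4 times that in every other tissue, liver and spleen not being compared with each other. There were 473 over the 5 tissues (135 for AMs, 115 for microglia, 101 for SMs, 85 for KCs and 37 for CMs), or 444 different genes, since 29 were counted for both liver and spleen. A gene was called kept in a library when the log2 ratio of CPM plus 1, dividing over non-dividing cells, exceeded −1. It was evaluated where at least 10 UMIs were expected in the dividing cells. With 1 library per group these are counts without a test. The sorts took only cells with the sorted surface proteins, so dividing cells that had lost these proteins could not be counted. In the WT libraries the same non-dividing cells chose the genes and served as the reference, which was not so in the Zeb2KO and Nr1h3fl/fl libraries.

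Of 883 evaluated pairs of gene and library, 751 (85.1%) were kept, and without spleen 651 of 696 (93.5%). AMs kept 129 of 135 genes in WT and 134 of 135 in Zeb2KO cells. KCs kept 77 of 85 in WT, 78 of 84 in Zeb2KO and 82 of 85 in Nr1h3fl/fl cells, CMs 32 and 31 of 37, and Zeb2KO microglia 88 of 98. SMs kept only 56 of 101 in WT and 44 of 86 in Zeb2KO cells. As background, the share of other genes that were at least 2-fold lower was 4.3% in microglia, 3.07% and 3.5% in CMs, 3.34%, 2.78% and 2.15% in KCs (WT, Zeb2KO and Nr1h3fl/fl), 2.25% and 1.46% in AMs, and 17.1% and 11.7% in SMs. Identity genes were somewhat lower as a group in every library, with median log2 ratios of −0.20 (AM Zeb2KO) to −0.40 (KC WT) outside spleen and of −0.93 and −0.98 in WT and Zeb2KO spleen. The medians of other genes lay near 0, except −0.38 in WT spleen and −0.11 in Zeb2KO spleen.

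**Figure D4:**
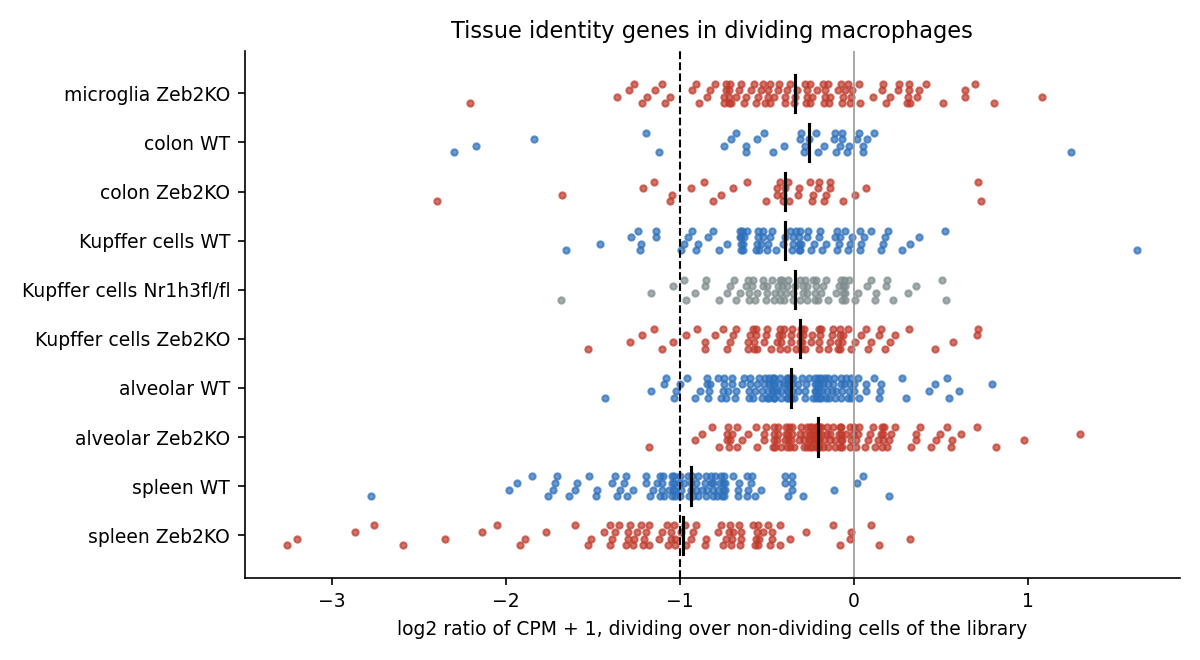
Log2 ratio of CPM plus 1, dividing over non-dividing cells, of each evaluated identity gene in each of 10 libraries, with a bar at the median and a dashed line at −1, below which a gene was not called kept. Most points of the 8 libraries outside spleen lie between the dashed line and 0, whereas the medians of the spleen libraries lie at −0.93 and −0.98.

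The identity genes were also compared between the dividing cells of the 5 tissues, each tissue summed over its libraries. Of the 444 different genes, 419 were highest in the tissue, or for the 29 genes counted for both liver and spleen in 1 of the 2 tissues, whose identity they marked. Of these 29, 16 were highest in KCs and 13 in SMs. Of the genes counted for liver alone 53 of 56 were highest in KCs, and of those counted for spleen alone 65 of 72 in SMs. With liver and spleen again not compared with each other and the 29 genes counted for both, 416 of 473 were at least 2-fold and 281 at least 4-fold above the other tissues compared. The 4-fold limit was passed by 57 of 85 KC genes (67.1%), 74 of 115 microglia genes (64.3%), 22 of 37 CM genes (59.5%), 77 of 135 AM genes (57.0%) and 51 of 101 SM genes (50.5%). These sums pool WT and Zeb2KO cells, with Nr1h3fl/fl cells in liver, and hold Zeb2KO cells only in microglia. The genes were chosen at the same limit in WT non-dividing cells, and no count in non-dividing cells pooled in this way is given. The shares therefore do not separate division from genotype or from testing again at the limit of choice.

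In KCs the defining genes stayed abundant in the dividing cells of all 3 libraries. The sort took Clec4F+ cells only, so cells without this protein could not be seen and the presence of Clec4f was fixed. Clec4f, the lectin used in the sort, had 3878 CPM (Poisson 95% interval 3704 to 4059) in WT dividing cells and 6056 CPM in WT non-dividing cells, 1686 against 2058 CPM in Zeb2KO and 3130 against 4197 CPM in Nr1h3fl/fl cells. Vsig4, a complement receptor, had 2074 against 3252, 1288 against 1724 and 2275 against 3149 CPM in these libraries. Timd4, which binds phosphatidylserine on dead cells, had 460 against 551 CPM in WT, 98.4 against 132 CPM in Zeb2KO and 431 against 481 CPM in Nr1h3fl/fl cells. Cd5l, a scavenger protein gene, was lower in WT dividing cells (3694 against 5191 CPM) and higher in Zeb2KO dividing cells (3341 against 2675 CPM). The Zeb2KO library may mix cells with different numbers of deleted alleles, and this mix may differ between dividing and non-dividing cells. Of Zeb2KO KCs with a UMI of Siglecf 2.45% were dividing, against 5.79% of those without. The part of this mix in the Zeb2KO KC values, and in the share of genes kept, was not tested. Nr1h3, which encodes LXR-alpha, a regulator of KC identity, had 268 against 391 CPM in WT and 245 against 259 CPM in Zeb2KO cells. Slfn5 was the one KC identity gene that was at least 2-fold lower in all 3 libraries, with 16.7 against 54.9, 18.1 against 45.4 and 23.1 against 53.1 CPM. Il18bp, an inhibitor of IL-18, and Ifitm6 were the next lowest in WT KCs, Il18bp with 307 against 748 CPM and Ifitm6 with 35.5 against 99.5 CPM.

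In AMs Chil3, the chitinase-like lectin, was the most abundant identity gene, with 5437 CPM (5276 to 5601) in WT dividing cells against 5836 CPM, and 15802 against 21077 CPM in Zeb2KO cells. Pparg, the transcription factor gene needed for AM formation, had 107 against 97.2 CPM in WT and 114 against 90.6 CPM in Zeb2KO cells, and was thus not lower in either. Plet1, a surface protein gene, had 635 against 873 and 871 against 1194 CPM, and Car4, a carbonic anhydrase gene, 373 against 538 and 471 against 781 CPM. Lpl and Fabp4, which handle lipids, were among the lower genes in WT AMs, Lpl with 1460 against 2840 CPM and Fabp4 with 200 against 410 CPM. Ear2, a ribonuclease gene, had 1123 (1051 to 1199) against 2518 CPM in WT and 572 against 928 CPM in Zeb2KO cells. Mmp19, the lowest in WT (49.0 against 134 CPM), differed less in Zeb2KO cells (52.4 against 63.3 CPM). None of the 135 AM genes was at least 2-fold lower in both libraries.

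In CMs Pf4, a chemokine gene, had 4975 CPM (4879 to 5073) against 4715 CPM in WT and 3554 against 4098 CPM in Zeb2KO cells. Ms4a7 had 1160 against 1658 and 988.5 against 1513 CPM, and Stab1, a scavenger receptor gene, 721 against 739 and 601 against 717 CPM. The genes that were at least 2-fold lower in both libraries were 4 of 37, Acta2, Tpm2, Rarres2 and Gsn. Acta2 and Tpm2 encode smooth muscle actin and tropomyosin. Acta2 had 34.6 CPM (27.0 to 43.6) against 174 CPM in WT and 27.8 against 151 CPM in Zeb2KO cells. When cells with other lineages' markers were left out, 32 of 33 CM identity genes (97.0%) were kept in each library.

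Microglia could be described in Zeb2KO cells only, from 26 dividing cells. Tmem119, a microglia marker, was at 1853 CPM (1680 to 2038) against 1868 CPM. Cst3, the protease inhibitor cystatin C, was at 36946 against 60120 CPM. Sall1, the transcription factor gene that maintains microglia identity, was at 65.7 CPM (36.8 to 108) against 110 CPM, from 15 UMIs. P2ry12, the ADP receptor of resting microglia, was among the 10 identity genes that were at least 2-fold lower, with 1472 CPM (1318 to 1638) against 3352 CPM. Gpr34 (604 against 1282 CPM) and Tmem173, which encodes STING (118 against 306 CPM), were others. The lowest was Mfng with 21.9 against 105 CPM, from 5 UMIs.

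SMs had the lowest shares of identity genes kept. Hmox1, Slc40a1, Spic and Vcam1, from the textbook list of red pulp mac genes, had lower values in the dividing cells of both libraries. Hmox1, which breaks down haem, had 5229 CPM (4919 to 5554) against 11328 CPM in WT and 3611 against 10292 CPM in Zeb2KO cells. Slc40a1, which exports iron, had 2069 against 4738 and 2377 against 5169 CPM. Spic, the transcription factor gene of red pulp macs, had 607 against 1590 CPM in WT and 736 against 1327 CPM in Zeb2KO cells, and Vcam1, an adhesion molecule gene, 3452 against 6609 and 1936 against 4924 CPM. In total 20 of the 86 genes evaluated in both libraries were at least 2-fold lower in both, Hmox1, Slc40a1, Cd5l, Itgad and Ccr3 among them. Of the textbook SM genes, Treml4 differed least among those that were lower in both libraries (207 against 273 and 226 against 304 CPM), and Gpx1, abundant also in red cells, was higher in WT dividing cells (2321 against 993 CPM). Without the haemoglobin-rich cells the WT values were 5706 against 11431 CPM for Hmox1, 2213 against 4777 CPM for Slc40a1, 665 against 1607 CPM for Spic, 3508 against 6661 CPM for Vcam1 and 1799 against 982 CPM for Gpx1. The share kept was 55.4% in WT and 51.2% in Zeb2KO cells, whose dividing cells held 7.81% and 0.0781% haemoglobin UMIs. Without the haemoglobin-rich cells it was 52.0% and 47.1%. That step took out 15 of the 36 WT dividing cells, whereas Alas2 was found in 21. The part of red cell transcripts in these shares was not tested. Against depth-matched cells the share was 67.3% in WT and 58.5% in Zeb2KO cells. It was 79.1% and 62.3% when Cd79a-positive cells were added to the reference. When 3 of the 4 division markers were required it was 45.5% and 54.2%. General mac markers summed to 4923 CPM in dividing and 9617 CPM in non-dividing WT SMs, and to 5683 and 8774 CPM in Zeb2KO SMs, lower than in every other library with dividing cells. Without the haemoglobin-rich cells the WT sums were 4649 and 9684 CPM. Whether cells other than macs make up part of these 36 and 16 cells was not tested.

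A list of genes associated with Zeb2 loss, picked from these samples, was followed in dividing cells. The study's text names most of them, but not Spint1 and Pglyrp1. Siglecf, which WT KCs lack, had 43.3 CPM (34.8 to 53.1) in dividing and 164 CPM in non-dividing Zeb2KO KCs, against 0 and 1.59 CPM in WT KCs. Among Zeb2KO KCs with a UMI of Siglecf, 47 of 1916 (2.45%, 1.81% to 3.25%) were dividing, against 151 of 2606 (5.79%, 4.93% to 6.76%) without, although cells with Siglecf were the more deeply sampled (medians of 6388 and 5120.5 UMIs). The order was the same after thinning (0.568% and 1.84%). Ms4a1, which encodes CD20, gave the same order in Zeb2KO KCs, with 1.91% (1.24% to 2.80%) of cells with it and 5.39% (4.63% to 6.23%) without it. After thinning the Ms4a1 shares were 0.888% and 1.66%, with overlapping intervals. These cells come from 1 library and are no replicates. By Ki-67 protein staining, the study reports restricted proliferation of SiglecF+ KCs, and more proliferation of SiglecF− KCs from CRE-positive mice than of control KCs. For AMs it reports little proliferation of EpCam+ cells, and more of EpCam− cells from CRE-positive mice than in controls. Siglecf and Ms4a1 in KCs were 2 of 25 pairs of gene and Zeb2KO library (5 genes, 5 libraries), and 5 others lay apart the opposite way, with more dividing cells among those with the gene. These were Cd101 in AMs, with 3.79% (2.87% to 4.91%) against 2.21% (1.83% to 2.65%), Epcam in CMs, with 7.69% (4.37% to 12.4%) against 2.74% (2.27% to 3.29%), and 3 that rest on 1 to 5 dividing cells, Ms4a1 and Epcam in microglia and Cd101 in KCs. Cells with a UMI of a gene were the more deeply sampled in these pairs. After thinning none of these 5 lay apart. Of 24 pairs 2 did, Siglecf in KCs and Itgax in AMs (0.704% of cells with it against 1.46% without). Both had fewer dividing cells among those with the gene. Epcam in AMs, where the study marked Zeb2 loss by EpCam with CD101, went the other way from Cd101, with overlapping intervals. The shares were 2.43% (1.99% to 2.94%) with it and 2.79% (2.16% to 3.54%) without it, and 0.770% and 1.14% after thinning. Not every pair can mark Zeb2 loss. AMs were sorted as CD11c+ SiglecF+ cells, so a UMI of Itgax, which encodes CD11c, or of Siglecf does not mark it there. CMs and SMs were sorted without SiglecF. Epithelial markers were found in 7.03% of dividing and 1.35% of non-dividing Zeb2KO CMs, and their part in the Epcam value there was not tested. In Zeb2KO microglia Siglecf had 320 CPM in dividing and 411 CPM in non-dividing cells. Over all 9 libraries Siglecf fell by 0.97 (SE 0.19, adjusted p = 0.000515) under both scalings and in 8 of 9 libraries. WT KCs, near 0 in both states, were among these 8. Siglecf did not pass with tissues as blocks (−0.60, adjusted p = 0.086). Of the 8 genes of this list, Zeb2 included, 5 were lower under TMM (2 with library totals), Ms4a1, Spint1 and Itgax under TMM only. Ms4a1 did not pass without Zeb2KO CMs (−0.92) or Zeb2KO KCs (−0.43), Spint1 without WT CMs (−0.68) and Itgax without Zeb2KO AMs (−0.50). Under DESeq2 none of these 3 passed (−0.34, −0.24 and −0.43), and with tissues as blocks Ms4a1 and Spint1 did not (adjusted p = 0.206 and 0.072). Epcam did not pass under TMM (0.94 ± 0.38, adjusted p = 0.0631) but was called higher with library totals (adjusted p = 0.0255) and without WT AMs (1.18) or Zeb2KO AMs (1.54). It was also called higher under DESeq2 (1.65), with the filter at 3 median absolute deviations (1.25), in cells with 3 mac markers (1.01) and without haemoglobin-rich cells (0.95).

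Whether the changes that go with division differ between genotypes was tested as an interaction of state and Zeb2KO over the same 9 libraries. No gene passed in edgeR (0 of 10368, or 0%, with 228 at an unadjusted p under 0.05 and a smallest adjusted p of 0.999948) or in DESeq2 (0, with 114). Without WT CMs 3 genes passed in edgeR, and without Zeb2KO KCs 1. In simulated data of this size the test recovered 33% of genes whose effects differed by 1 and 81% of those that differed by 2 on the log2 scale, so differences of 2-fold would mostly be missed. The median SE of the interaction was 0.29.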

How the data were processed

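Single-cell RNA-seq counts of 11 libraries were analysed, with 27998 genes and 3097 to 7703 barcodes each. The authors processed reads with Cell Ranger, mapped them with STAR to mm10 and deposited raw UMI counts per gene and barcode, the unit used here. In the study's own analysis of the single-cell data, cells beyond 3 median absolute deviations and actively proliferating cells were removed, and proliferation was measured separately by Ki-67 staining. Here no cell was removed beforehand, and the former filter, tried as an alternative, took away 100 of the 977 dividing cells (10.2%). Scaling factors, CPM and log2 ratios were derived here from these counts.

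The members, gene lists and tests were chosen with earlier results of these data known. Per library, UMIs of dividing and of non-dividing cells were summed. The state test used edgeR 4.0.16 (R 4.3.3, limma 3.58.1; TMM, filterByExpr, quasi-likelihood F test) with the library as a block, on the 9 libraries with at least 20 dividing cells, and left out Mki67, Top2a and Cd79a. Because the cells of both sums come from 1 library, p-values measure the spread of the difference between libraries. Genes called changed had an adjusted p under 0.05. On simulated counts of 10105 genes, 86% of genes changed by 1 and 92% of those changed by 2 on the log2 scale were recovered, with 4.81% false calls. For the interaction, 33% and 81% of 200 changed genes among 10132 were recovered. Each simulation changed 200 genes, as many up as down, with 1 dispersion for all genes. It does not cover the more numerous and uneven changes of the real data or the shift between scalings.

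Genes named were members of the lists with the largest and smallest fold changes among those with at least 10 CPM, all members of the regulator, receptor, cyclin and Zeb2KO lists at choice, the 10 highest and 10 lowest other genes with 1 sign in every library and at least 20 CPM, and, per tissue, the 5 most abundant and 3 lowest identity genes and a textbook list. Some members of these lists enter the counts and are not reported by name here.

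Alternatives were the filter above, 2 UMIs of each marker, 3 of 4 markers, cells with 3 mac markers only, cells with 2 markers of another lineage left out, a reference matched on UMIs (10 nearest cells), a reference with Cd79a-positive cells, RLE and library-total scaling, no filter on low counts, DESeq2 1.42.0, tissues as blocks and leaving out each library. Leaving out cells with over 10% haemoglobin UMIs and scaling by library totals were chosen after seeing the data. Shares have exact binomial and levels exact Poisson 95% intervals, which cover counting error only, and a count of 0 was given a limit of 3 cells. Doublets were not called. Of 51712 barcodes, 3225 occurred in more than 1 library, 78 of them dividing cells, with at most 76 per pair of libraries.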

Additional observations from a re-analysis of the deposited data

Results flagged for a closer look

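The share of dividing cells differed between WT and Zeb2KO in opposite directions in liver and spleen. The log2 ratio of Zeb2KO over WT was 1.97 in liver, from 198 and 50 dividing cells, and −0.98 in spleen, from 16 and 36 dividing cells. With 1 library per tissue and genotype the difference between the tissues was not tested. In liver the ratio was 2.11 after thinning to 2000 UMIs and 1.23 against the Nr1h3fl/fl library. In spleen it was −1.42 after thinning and −0.21 without cells of more than 10% haemoglobin UMIs, of which 15 were WT and 0 Zeb2KO dividing cells and which were also left out of the non-dividing cells.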

How the results depend on the processing

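The genes called in dividing against non-dividing cells numbered 3998, and 2801 (tissues as blocks) to 5100 (no filter on low counts) under the alternatives. Leaving out 1 library gave 3404 (without Zeb2KO CMs) to 4166 (without WT SMs), and DESeq2 called 3494. Scaling by library totals turned the split to 2263 higher and 1108 lower genes, which is 67.1% higher in place of 36.2%; the cause was not tested. Of 1392 pairs of a named gene and an alternative, 1314 kept direction and side of the threshold, 63 lost the call, 9 gained it and 6 changed sign. Each of these 6 was of Cx3cr1, which passed in no fit, and 3 came from alternatives, −0.0714 in cells with 3 mac markers, −0.0852 against depth-matched cells and −0.0525 without the filter on low counts. Without single libraries it ranged from −0.24 to 0.20. The share of identity genes kept, 85.1%, was 89.4% with Cd79a-positive cells in the reference, 88.7% against depth-matched cells, 89.7% for genes 2 times higher than in other tissues and 88.2% with a pseudocount of 10 CPM; the cause was not tested, and the remaining alternatives gave 83.3% to 86.3%. The mean log2 ratio of the dividing share, 0.89, was 0.39 (thinned to 1000 UMIs) to 1.04 (haemoglobin-rich cells out) and 0.37 to 1.35 with 1 tissue left out; 5 pairs or fewer cannot pass the test. Genes whose difference by state differed between genotypes numbered 0 to 3 with 1 library left out, 3 without WT CMs and 1 without Zeb2KO KCs. No paired analysis was possible because the labels give no replicate numbers to pair by, beyond the tissue pairs and library blocks that the tests already hold. Where an arm was left with 1 library, its spread was taken from the other groups. Few dividing cells limited the spleen and microglia values, with 36 in WT and 16 in Zeb2KO SMs and 0 and 26 in microglia.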

Other observations

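Cells with Cd79a were left out of the dividing macs, and 45 of them held UMIs of both Mki67 and Top2a, 21 in WT and 9 in Zeb2KO spleen. Among cells with both B cell receptor genes Cd79a and Cd79b, 17 of 600 in WT spleen (2.83%, exact 95% interval 1.66% to 4.50%) and 8 of 397 in Zeb2KO spleen (2.02%, 0.874% to 3.93%) were positive for both division genes. In liver 0 of 150 such cells in WT and 2 of 146 in Zeb2KO were.

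Marco, a scavenger receptor gene of KCs, was higher in dividing than in non-dividing cells of both CRE-negative liver libraries (598 against 328 CPM in Zeb2fl/fl and 770 against 640 CPM in Nr1h3fl/fl) and lower in Zeb2KO KCs (333 against 418 CPM). Sparc, an extracellular matrix gene of microglia, was at 1463 CPM in dividing and 1226 CPM in non-dividing Zeb2KO microglia.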
